A study of Mus musculus with 2 samples.

Results

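The mitochondrial ribosomal protein genes were the genes whose array name consisted of Mrpl or Mrps, a number and at most 1 further letter. The name rule took 106 of the 55681 gene probes on the array, and these probes stood for 76 genes. All 76 genes had a probe well above background on both arrays, so each of them had a measured difference, among 22139 measured genes in all. No measured value was used to choose them.

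Transcripts were measured with 1 single-colour oligonucleotide array per genotype in mouse material labelled beta-cell. CSE-WT was wild type and CSE-KO was a CSE knockout; both samples share the strain C57BL/6J, an age of 6 months and a high-fat diet, and no group on another diet was analysed here. CSE is cystathionine gamma-lyase, which makes hydrogen sulfide from cysteine and is encoded by Cth. The 2 probes of Cth stayed too dim to count as above background (13.5 and 12.8 intensity units on CSE-WT, 3.15 and 3.68 on CSE-KO), so the arrays gave no check of the genotype labels. How the knockout allele was made, how many animals gave each RNA and whether cells were sorted are not given in the sources used here.

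The mitochondrial ribosome translates the few messages encoded in mitochondrial DNA, which specify core subunits of the respiratory chain and of ATP synthase. Its proteins are encoded in the nucleus and imported, and they assemble with RNAs made inside the organelle into a small subunit, which reads the message, and a large subunit, which joins the amino acids. Beta cells couple glucose oxidation in mitochondria to insulin release, and so depend on the respiratory chain that this ribosome helps to build.

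Most of these genes were slightly lower on the CSE-KO array. A level is given here as log2 of the spot intensity minus the 75th percentile of the array, and a difference is CSE-KO minus CSE-WT. Of the 76 genes, 64 (84.2%) were lower on the CSE-KO array and 12 were higher, where 51.3% of all measured genes were lower. The median difference was -0.08 (middle 50% from -0.14 to -0.04), which puts the median gene at 94.7% of its CSE-WT signal; over all measured genes it was -0.01. The differences were small, since 59 of the 76 genes lay within 10% of their CSE-WT signal. No gene was lower by 0.32 log2 units or more, where 7.56% of all measured genes were, and no gene was higher by as much, where 9.24% were. No gene passed 2-fold, which 1.61% of all measured genes did. With 1 array per genotype there was no test and no replicate check, so these values describe 2 RNA samples. Fewer cells of a type and less RNA per cell cannot be told apart in such bulk samples. With each array scaled to its median the set's median was -0.04 and that of all genes 0.03. Without the filter on dim probes the set's median stayed at -0.08 while that of all genes was -0.06, with 58.3% lower, so the gap narrowed from -0.07 to -0.02. With another background correction (normexp) the split was 53 lower and 23 higher, or 69.7% lower.

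**Figure D1:**
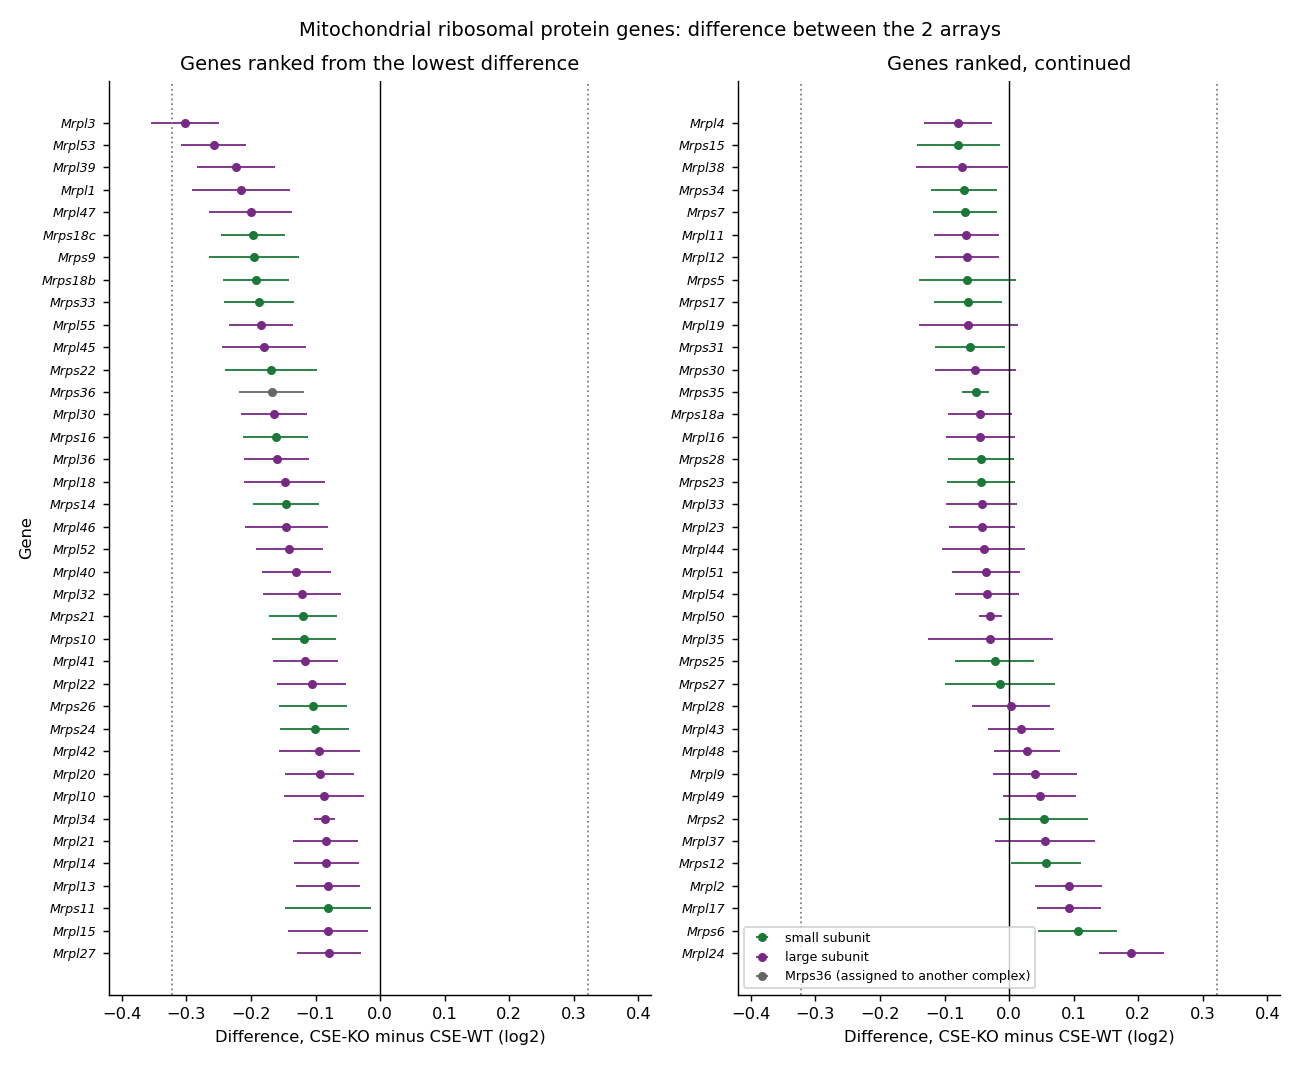
Difference between the arrays (CSE-KO minus CSE-WT, log2, horizontal axis) for each of the 76 genes, ranked from the lowest (top left) to the highest (bottom right), with 1 array per genotype. Bars are 1 spot SD from repeats within each array, not a spread between arrays or animals. Dotted lines mark a difference of 0.32 either way. Mrpl3 at -0.30 and Mrpl24 at 0.19 are the ends, and no point lies outside the dotted lines.

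The share has to be read against the level of the genes, because brighter genes were more often lower on the CSE-KO array. Of the 76 genes, 74 were above the median level of all measured genes, and 55.9% of all measured genes above that median were lower. Between the level quartiles of the ribosomal set (2.08 and 4.09), 33 of its 38 genes were lower with a median of -0.08, while 56.8% of all measured genes in that range were lower with a median of -0.02. When all measured genes were cut into 10 equal bins by level, 64.6% of the brightest bin were lower with a median of -0.04, and 9 of the 12 mitochondrial ribosomal protein genes there were lower. The larger share of lower genes was thus also present among genes of like brightness on these 2 arrays.

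**Figure D2:**
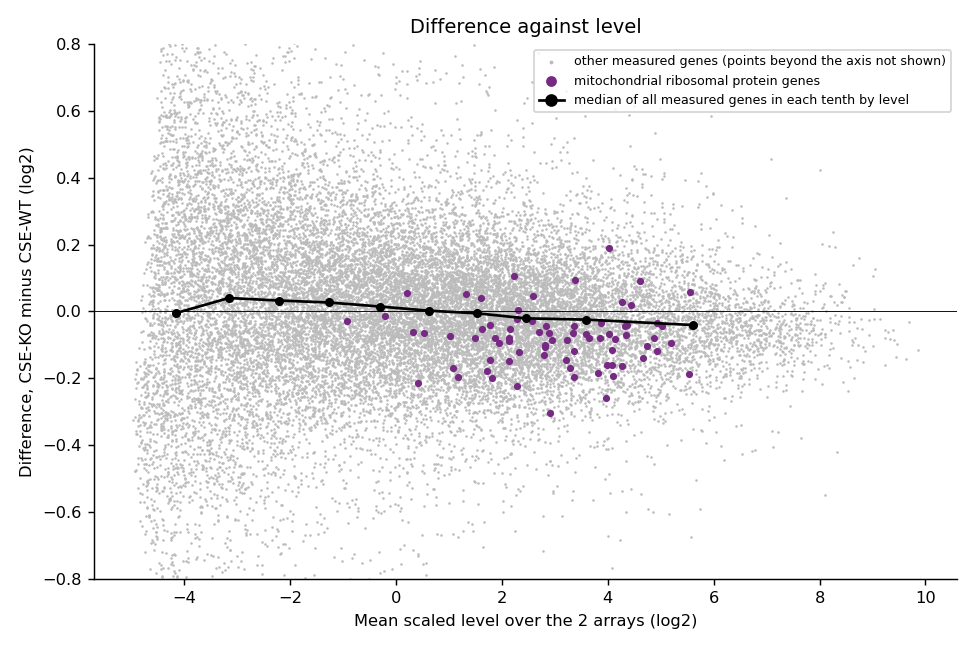
Difference (CSE-KO minus CSE-WT, log2) against the mean scaled level of the 2 arrays (log2), with 1 point per measured gene. The black line joins the median of all measured genes in 10 equal bins by level, at -0.04 in the brightest bin; most of the purple points, the mitochondrial ribosomal protein genes, lie below it.

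Probes printed 10 times gave the technical noise of a single spot, which was 0.05 for a difference at the median level of these genes. For the 3 genes whose probe was itself printed 10 times, the noise at the gene's level divided by the square root of 10 was used instead. By that measure 22 genes lay within 1 spot SD of no difference, 40 between 1 and 3, and 14 beyond 3. Of the 40, 36 were lower. With single-spot noise for every gene the counts were 24 within 1, 39 between 1 and 3, and 12 lower and 1 higher beyond 3, since Mrpl34 then came inside. The genes beyond 3 spot SD were 13 lower ones (17.1%) and 1 higher one (1.32%). Among all measured genes 9.97% were lower and 9.16% higher by this rule, and between the level quartiles 16.6% and 11.1%. Within those quartiles 9 of 38 genes of the set (23.7%) were lower and 1 was higher by the rule. Spot noise came from repeats of a probe within each array. It covers printing, hybridisation and scanning only as they vary between spots of an array. Amplification, labelling and other variation between arrays are not in it, nor is the spread between animals. A difference beyond 3 spot SD is thus not shown to exceed all technical noise.

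Mrpl3, which lies near the peptidyl transferase centre of the large subunit, had the lowest difference of the set. Its level was 3.06 on CSE-WT and 2.75 on CSE-KO, a difference of -0.30 and 1.23-fold lower. Its single probe lies at chr9:104979701-104979760 on the plus strand of build mm9 (exon and UTR position not determined here). The stretch before its RefSeq start is shown because it holds, in capitals, the CCGGAAG core that ETS factors such as GABPA bind. GABPA, also called NRF-2, is a known activator of nuclear genes for mitochondrial proteins. Mrpl53, a mitochondria-specific protein of the large subunit, came next, with levels of 4.10 and 3.84 and a difference of -0.26 (1.20-fold lower). Its stretch holds that core once on each strand. Mrpl36, the small zinc-binding protein of the large subunit, is shown for the YY1 core AAGATGGCG, here on the other strand as CGCCATCTT; its levels were 4.16 and 4.0, a difference of -0.16. Mrpl32, a zinc-binding protein that must be cut by the m-AAA protease before the large subunit can assemble, is shown for the NRF1 core GCATGCGC, which lies there 4 times counting both strands (the pair in the first run of capitals overlap). Its levels were 2.38 and 2.26, a difference of -0.12.
Mrpl3, chr9:105053148-105053267, plus strand: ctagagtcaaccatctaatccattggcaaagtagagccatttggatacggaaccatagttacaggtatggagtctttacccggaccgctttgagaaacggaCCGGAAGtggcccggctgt
Mrpl53, chr6:83108988-83109107, plus strand: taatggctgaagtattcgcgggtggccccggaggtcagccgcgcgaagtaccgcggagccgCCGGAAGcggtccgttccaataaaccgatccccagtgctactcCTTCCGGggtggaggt
Mrpl36, chr13:73330889-73331008, plus strand: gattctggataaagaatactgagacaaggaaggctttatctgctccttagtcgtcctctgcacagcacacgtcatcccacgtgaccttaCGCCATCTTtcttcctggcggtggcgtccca
Mrpl32, chr13:14613038-14613157, minus strand: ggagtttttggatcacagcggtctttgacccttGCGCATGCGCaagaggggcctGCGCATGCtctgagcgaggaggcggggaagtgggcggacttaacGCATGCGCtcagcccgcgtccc
The sequences are RefSeq's on build GRCm38.p6, each ending at the base before the start, written 5′ to 3′ along the gene; the probe coordinates above are on mm9.

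The small subunit was lower in 23 of its 26 genes, with a median of -0.07. Mrps18c, which belongs to the bacterial S18 family, had levels of 3.45 and 3.25 and a difference of -0.20. Mrps9, of the S9 family, had 1.27 and 1.07, also -0.20. Mrps33, specific to mitochondria, had 5.63 and 5.44, a difference of -0.19. Mrps22, a mitochondria-specific protein whose loss in people impairs the small subunit, had 1.16 and 0.99, a difference of -0.17. Mrps16, the first mitoribosomal protein gene linked to a human respiratory chain disease, had 4.07 and 3.91, a difference of -0.16, and Mrps34, needed for a stable small ribosomal RNA, had 4.37 and 4.30, or -0.07. On the single array of each genotype, these 6 genes were all lower with CSE-KO.

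Mrps18b, a further relative of S18, had levels of 4.19 and 4.0 and a difference of -0.19, but its chosen probe lay in a patch of the slide where the neighbouring gene spots had a median difference of -1.27. Its second probe, outside any patch and overlapping the first in sequence position, had levels of 3.99 and 3.85, a difference of -0.14. The gene spots around that second probe were lower too, with a median difference of -0.30. The last, dimmer probe of Mrps18b, outside any patch, had 1.05 and 1.06, a difference of 0.01, and its neighbouring spots had a median of 0.11. The part of the patch in the first value, and of the neighbouring spots in the second, was not tested. The third relative, Mrps18a, sits in the large subunit and had 3.39 and 3.34, a difference of -0.04.

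The 3 small-subunit genes that were higher on CSE-KO were Mrps6, Mrps12 and Mrps2. Mrps6, of the S6 family, had levels of 2.18 and 2.29, a difference of 0.11. Slc5a3, a myo-inositol transporter gene whose transcripts share the Mrps6 locus, was also higher, at -2.99 and -2.77, a difference of 0.23, and the arrays cannot assign signal between transcripts that share exons. Mrps12, the decoding-centre protein in which bacterial streptomycin resistance arises, had 5.53 and 5.59, a difference of 0.06. Mrps2 had 1.29 and 1.34, a difference of 0.05.

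The large subunit was lower in 40 of its 49 genes, with a median of -0.08, so the medians of the subunits differed by less than the spot noise of 1 gene. Mrpl39, related to threonyl-tRNA synthetase, had levels of 2.40 and 2.18, a difference of -0.22. Mrpl1, of the mobile L1 stalk, had 0.52 and 0.30, also -0.22, though it stayed within 3 spot SD. Mrpl55 had 3.91 and 3.73, a difference of -0.18. Mrpl41 had 4.14 and 4.02, or -0.12, and Mrpl44, which carries a ribonuclease III-like fold, had 1.79 and 1.75, or -0.04. Mrps30, a large-subunit protein despite its name, had 2.17 and 2.12, or -0.05. The differences of these 6 genes ran from -0.22 to -0.04.

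The large subunit also held the highest gene of the set. Mrpl24, at the exit of the peptide tunnel, had levels of 3.93 and 4.12, a difference of 0.19 (1.14-fold higher), and was the single gene higher by over 3 spot SD. The 4 neighbours picked for comparison (a grouping made after the values were seen, not a full list of the exit) were lower. Mrpl47 was at -0.20, Mrpl45, which anchors the ribosome to the inner membrane, at -0.18, Mrpl22 at -0.11 and Mrpl23 at -0.04. Mrpl47 had levels of 1.92 and 1.72, and Mrpl45 had 1.81 and 1.63. Mrpl24 thus differed in sign from the 4 genes picked. Of these, Mrpl23 lay within 1 spot SD of no difference and was at 0.04 with normexp background correction.

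Other genes of the large subunit on the higher side differed by less than 2 spot SD. Mrpl17 had levels of 3.32 and 3.42 and Mrpl2, near the catalytic centre, 4.56 and 4.65, each a difference of 0.09. Mrpl37 had 0.18 and 0.23 (0.06), Mrpl49 had 2.56 and 2.60 (0.05), and Mrpl9 had 1.58 and 1.62 (0.04). Mrpl48 had 4.25 and 4.28 (0.03), Mrpl43 had 4.42 and 4.44 (0.02), and Mrpl28 had 2.31 on both arrays (0.00). Mrpl17 and Mrpl2 were at least as far above 0 as the median gene of the set was below it.

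The stalk that recruits translation factors was lower in its 3 genes, Mrpl10 at -0.09, Mrpl11 at -0.07 and Mrpl12 at -0.07. Mrpl12, which has also been found bound to the mitochondrial RNA polymerase, had levels of 3.38 and 3.32. In the central protuberance, where the subunits touch, Mrpl18 (-0.15), Mrpl46 (-0.15), Mrpl40 (-0.13) and Mrpl38 (-0.07) were lower and Mrpl48 was higher. These groups, too, were formed with the values known.

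Genes for proteins with a bacterial counterpart and for those specific to mitochondria were lower in similar shares. Of 46 genes of bacterial families 38 were lower, with a median of -0.08, and of 29 mitochondria-specific genes 25 were lower, with a median of -0.06. The 10 mitochondria-specific genes of the small subunit were all lower, from -0.19 (Mrps18b, whose probe lay in a patch) to -0.01, against 51.3% of all measured genes. Not every sign is settled. Of 6 scale and background settings, Mrps25 was lower in 2, Mrps27 in 4 and Mrps34 in 5, and the rest were lower in each. Mrps36, now placed in the 2-oxoglutarate dehydrogenase complex rather than in the ribosome, had levels of 3.37 and 3.20 and a difference of -0.17, within the range of the ribosomal genes. The lowest level in the set was that of Mrpl35, at -0.92 and -0.95.

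The best measured genes were those whose probe was printed 10 times. Mrpl34 had a level of 2.99 ± 0.04 on CSE-WT (SD, n = 9 spots) and 2.90 ± 0.03 on CSE-KO (SD, n = 9 spots), a difference of -0.09. Mrpl50 had 2.58 ± 0.03 (SD, n = 10 spots) and 2.55 ± 0.02 (SD, n = 9 spots), a difference of -0.03. Mrps35 had 1.65 ± 0.04 (SD, n = 10 spots) and 1.60 ± 0.05 (SD, n = 10 spots), a difference of -0.05. Spots are technical repeats of 1 RNA sample, and outlier spots were left out. The spot noise of repeated probes at the gene's level, divided by the square root of 10, served as the error. It leaves out variation between arrays. The difference was 5.15 times that error for Mrpl34, 2.50 times for Mrps35 and 1.65 times for Mrpl50. The SDs of the gene's own spots given above did not enter these ratios.

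Probes of the same gene did not always go the same way. Of the 105 measured probes, 77 (73.3%) were lower, against 50.7% of all measured probes, with a median of -0.07. In the 25 genes with 2 or more measured probes, 9 had all probes lower, 3 had all higher and 13 had both. The 29 probes that were not the brightest of their gene split into 13 lower and 16 higher, with a median of 0.01. Of the 13 probes with a level below 0, 8 were higher (median 0.06), whereas of the 92 brighter ones 20 were higher (median -0.08). Among all measured probes below 0, 53.5% were higher, with a median of 0.02. The direction given for the set therefore rests on the brighter probe of each gene, and with the mean of a gene's probes 60 of 76 genes were lower.

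**Figure D3:**
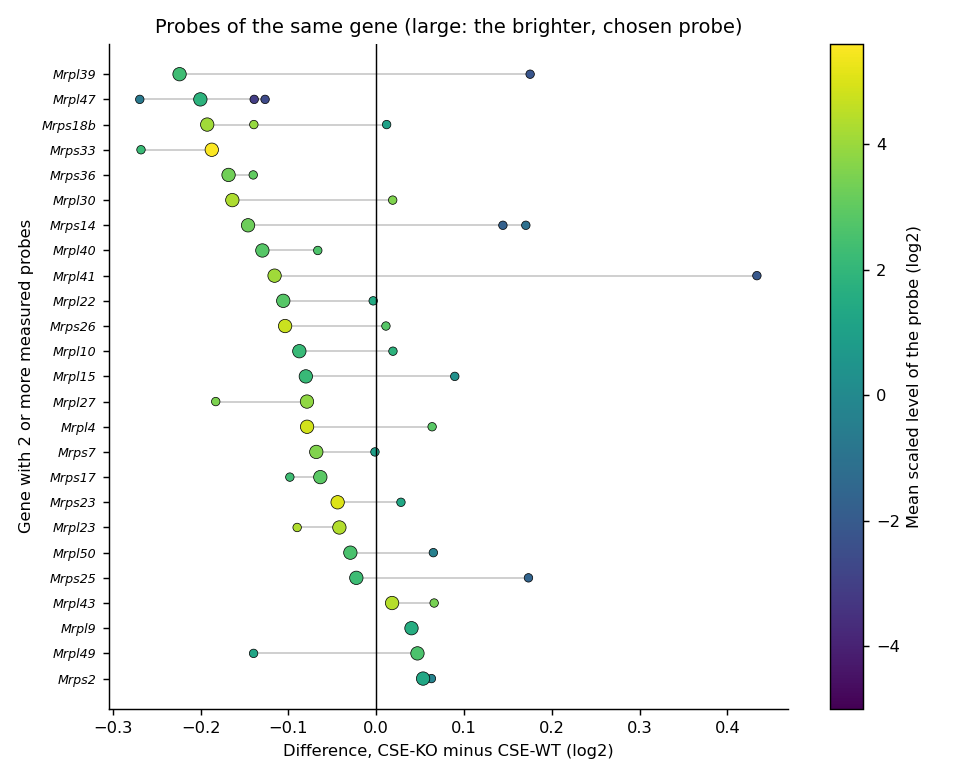
Difference (CSE-KO minus CSE-WT, log2) of each measured probe in the 25 genes with 2 or more such probes; a large symbol is the brighter probe that stood for the gene, and colour is the mean level. Several dim probes lie right of 0 while the large symbol of the same gene lies left of it, as for Mrpl41 (0.43 and -0.12).

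Mrpl41 and Mrpl39 had the widest disagreement. The second probe of Mrpl41, at transcript position 2318 (657 for the chosen probe), had levels of -2.35 and -1.91, a difference of 0.43. The second probe of Mrpl39 had levels of -2.30 and -2.13, a difference of 0.18. Both second probes were dim, where a spot SD was 0.15 to 0.16. Mrps14 behaved alike, with a chosen probe at -0.15 and dimmer probes at 0.14 and 0.17. In Mrpl47 the 4 probes were lower, from -0.27 to -0.13. One probe of Mrpl21 was dimmer than the background rule allows on both arrays, and its other probe had levels of 3.26 and 3.18.

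Proteins of the mitochondrial ribosome whose genes carry other names on the array were fetched from a separate list. Of these, 6 of 7 (85.7%) were lower, with a median of -0.10. Their median level was 4.39, and 57.5% of all measured genes in the bin that holds it were lower, with a median of -0.02. Mrpl57 and Mrpl58 are on this list because the array names these genes otherwise. Chchd1, of the small subunit, had levels of 4.79 and 4.59 (-0.20). Mrpl57 had 5.62 and 5.51 (-0.11), Ptcd3 had 2.66 and 2.56 (-0.10), Gadd45gip1 had 3.77 and 3.67 (-0.10), Aurkaip1 had 5.99 and 5.91 (-0.08) and Mrpl58, which releases stalled peptides, had 4.35 and 4.28 (-0.07). Dap3, the GTP-binding protein of the small subunit, was the exception, at 4.33 and 4.45, a difference of 0.13.

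The factors that work on the ribosome were a little more often higher than lower. Their median levels, 1.67 for translation factors and 1.53 for assembly genes, were below the 3.07 of the ribosomal set, and in the bin that holds such levels 51.6% of all measured genes were lower. Of 16 measured translation factors 7 were lower and 9 higher, with a median of 0.01. Mtif2, the initiation factor that places the first tRNA, had levels of 3.47 and 3.72 (0.25), and Guf1, a back-translocating elongation factor, had -1.47 and -1.24 (0.24). Taco1, the activator of COX1 translation, had -1.26 and -1.5 (-0.24), and Tsfm, the exchange factor of mitochondrial elongation factor Tu, had 0.47 and 0.30 (-0.18). Of 27 measured assembly genes 11 were lower and 16 higher, with a median of 0.02. Mrm1, which methylates the large ribosomal RNA, had levels of 2.63 and 2.30 (-0.33). Afg3l2, a subunit of the m-AAA protease that cuts Mrpl32, had 2.21 and 1.91 (-0.30), Mterf3 had 1.08 and 0.78 (-0.29), and Mettl17 had -0.43 and -0.20 (0.22). Lower genes thus made up a smaller share of these helpers than of the ribosome's own genes, and that difference was not tested.

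Genes of mitochondrial transcription and RNA processing were lower in 11 of 16 (68.8%), with a median of -0.10. Their median level was 0.82, and 49.6% of all measured genes in the bin that holds it were lower. Tefm, the elongation factor of the mitochondrial RNA polymerase, had levels of -0.45 and -0.76 (-0.31). Trmt10c and Prorp, both of mitochondrial RNase P, had levels of 0.05 and -0.13 (-0.18) and of -1.62 and -1.38 (0.24), but the second probe of Prorp was at -0.14, so its direction is not settled. Mterf2 had 0.88 and 0.12 (-0.76), but its probe lay in a patch of the slide like that of Mrps18b.

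Among 12 regulators of mitochondrial biogenesis 7 (58.3%) were lower, with a median of -0.12. Their median level was -0.42, and 47.3% of all measured genes in the bin that holds it were lower. Ppargc1a, which encodes the coactivator PGC-1 alpha, had levels of -0.43 on CSE-WT and -1.31 on CSE-KO, a difference of -0.88 shared by both of its probes. Ppargc1b, its close relative, had -3.14 and -3.87 (-0.73) from a dim probe. Esrra, the nuclear receptor through which PGC-1 coactivators act, had 3.40 and 3.04 (-0.36), while Pprc1, the third coactivator of the family, had -1.95 and -1.65 (0.31). Factors that bind the motifs searched in the promoters went both ways. Yy1 was at -0.27, Nrf1 at -0.22 with 1 of its other probes at 0.38, and Gabpa at -0.10, while its partner Gabpb1 was at 0.11. Sp1, which binds GC boxes, was at 0.12, and Myc, which binds E-boxes, at 0.20. No gene of the ribosomal set differed by as much as Ppargc1a or Ppargc1b.

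The nearest comparisons were the cytosolic ribosome and the respiratory chain. Of 76 measured cytosolic ribosomal protein genes 66 (86.8%) were lower, with a median of -0.06. Of 77 measured genes for nuclear-encoded respiratory chain and ATP synthase subunits 72 (93.5%) were lower, with a median of -0.13, and 24 of them by over 3 spot SD. The mitochondrial ribosomal protein genes, with 84.2% lower and a median of -0.08, lay between these medians. The cytosolic genes all had levels of 5.16 or more, in the brightest of the 10 bins, and the median level of the respiratory genes was 5.51. In that bin 64.6% of all measured genes were lower, with a median of -0.04, and 14.1% were lower by over 3 spot SD. The median of each set was below that, by little for the cytosolic genes, and the differences between the sets have no test.

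**Figure D4:**
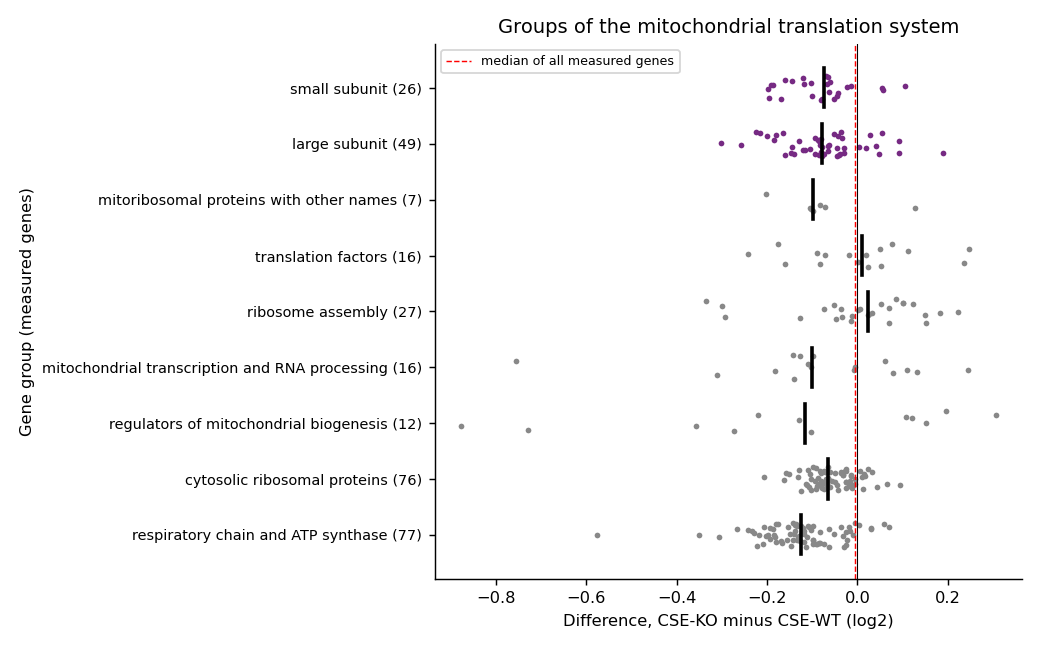
Difference (CSE-KO minus CSE-WT, log2) of each measured gene in 9 groups, with the number of genes in brackets; black bars are medians, the dashed line is the median of all measured genes (-0.01), and the vertical scatter is arbitrary. Mrps36 is in neither subunit. Both ribosomal subunits (medians -0.07 and -0.08) lie left of the dashed line, whereas translation factors and assembly genes lie on both sides of it.

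Markers of cell types differed between the arrays too. Summed signal is given as a multiple of the 75th percentile of the array. The 9 beta-cell markers summed to 2718 on CSE-WT and 2513 on CSE-KO, with 6 lower (66.7%) and a median of -0.12. In the brightest bin, which holds their median level, 64.6% of all measured genes were lower. The 5 alpha-cell markers summed to 1147 and 1017, with 5 of 5 lower and a median of -0.62. The 7 acinar markers summed to 780 and 738, with 3 lower, 4 higher and a median of 0.01. They ran from Ptf1a at -2.24 and Amy2a5 at -0.42 to Ctrb1 at 0.46. Ptf1a was dim (-2.60 and -4.83) and its probe lay in a patch. The probes of the alpha-cell marker Ttr and of Ppy, a delta and PP marker, lay in patches too. The 5 macrophage markers (20.8 and 25.1), 4 fibroblast and stellate markers (1.03 and 1.71) and 6 proliferation genes (2.60 and 6.25) were higher on CSE-KO in every measured member. The 3 delta and PP cell markers summed to 939 and 885, with 2 lower. The 4 endothelial markers summed to 69.2 and 70.3, with 3 higher. Of the 4 ductal markers Spp1 and Krt19 were higher (differences of 0.53 and 0.23), and Sox9 and Cftr were not measured on both arrays. The acinar and the delta and PP lists also had their median level in the brightest bin. For the other lists, the share of all measured genes lower in the matching bin was 51.6% (alpha, macrophage) and 56.4% (endothelial). It was 47.3% for proliferation, 44.9% for fibroblast and stellate, and 45.0% for ductal markers. The beta, alpha and acinar markers were all well above background on both arrays, and the cell type that carried a ribosomal gene's difference is not known; the part of cell composition in it was not tested.

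The promoters of the set were compared with those of other genes, in windows from 250 bases before to 50 after a RefSeq start (GRCm38.p6). Of the 76 genes, 67 had an entry. CCGGAAG was present on either strand in 24 of the 67 (35.8%), against 9.93% of all genes with a promoter entry and 17.3% of measured genes. AAGATGGCG was present in 8 (11.9%), against 1.64% and 3.06%, and GCATGCGC also in 8 (11.9%), against 3.05% and 5.21%. Hits of different cores shared bases in 0 of the genes over these whole windows. At least 1 of the 3 cores was present in 34 genes. The GC box GGGCGG was present in 49.3% (38.2% of all genes and 62.5% of measured genes), CCAAT in 40.3% (41.1% and 42.2%), the E-box CACGTG in 7.46% (8.09% and 10.9%) and TATAAA in 7.46% (15.7% and 10.4%).

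Genes with and without these cores had similar medians. Of the 24 genes with CCGGAAG 20 were lower, with a median of -0.09, and of the 43 without it 35 were lower, with a median of -0.08. Of the 8 with AAGATGGCG 7 were lower, with a median of -0.06, and of the 8 with GCATGCGC 6 were lower, with a median of -0.10. Mrpl24, the highest gene, had none of the 3, and Mrpl43, with little difference, had CCGGAAG more than once. A match to letters is not a bound site.

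Some of these genes start close to a neighbour on the other strand. In 22 of 67 genes (32.8%) a start on the opposite strand lay within 500 bases and pointed away, against 10.9% of all genes and 15.9% of measured genes. The closest pair within the set was Mrpl46 and Mrps11, whose starts are 42 bases apart and whose differences were -0.15 and -0.08. Mrpl43 and Twnk, the gene of the mitochondrial DNA helicase, start 116 bases apart, with differences of 0.02 and 0.08. The whole stretch between the starts is shown for both pairs, written along Mrpl46 and Mrpl43, with CCGGAAG in capitals; that of Mrpl46 holds none of the 3 cores.
Mrpl46 to Mrps11, chr7:78783090-78783130, minus strand: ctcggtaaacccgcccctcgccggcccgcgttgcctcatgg
Mrpl43 to Twnk, chr19:45006443-45006557, minus strand: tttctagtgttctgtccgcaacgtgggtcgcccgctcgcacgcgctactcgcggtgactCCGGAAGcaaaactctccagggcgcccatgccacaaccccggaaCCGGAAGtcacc

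Partners outside the set did not mirror it. Of 19 measured partners 7 were lower, with a median of 0.07, while 14 of the 19 ribosomal genes paired with them were lower. Among all measured genes 51.3% were lower. Several partners had levels near or below 0, and in the bin from -0.78 to 0.15 47.3% of all measured genes were lower. The part of level in this contrast was not tested. Mrpl47 and Ndufb5, a subunit of complex I, start 308 bases apart and were both lower, at -0.20 and -0.27. Dimmer measured probes of Ndufb5 were at -0.13 and, with levels of -2.44 and -2.19, at 0.25. Mrpl32 and Psma2, a proteasome subunit, start 205 bases apart, at -0.12 and -0.09. Mrps12 and Sars2, the mitochondrial seryl-tRNA synthetase, start 147 bases apart, at 0.06 and 0.09. Mrpl27 and Eme1, a DNA repair nuclease subunit, start 48 bases apart but were at -0.08 and 0.92, with Eme1 dim on both arrays (-3.98 and -3.05). Nearby divergent starts thus went with like differences in some pairs and not in others.

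**Figure D5:**
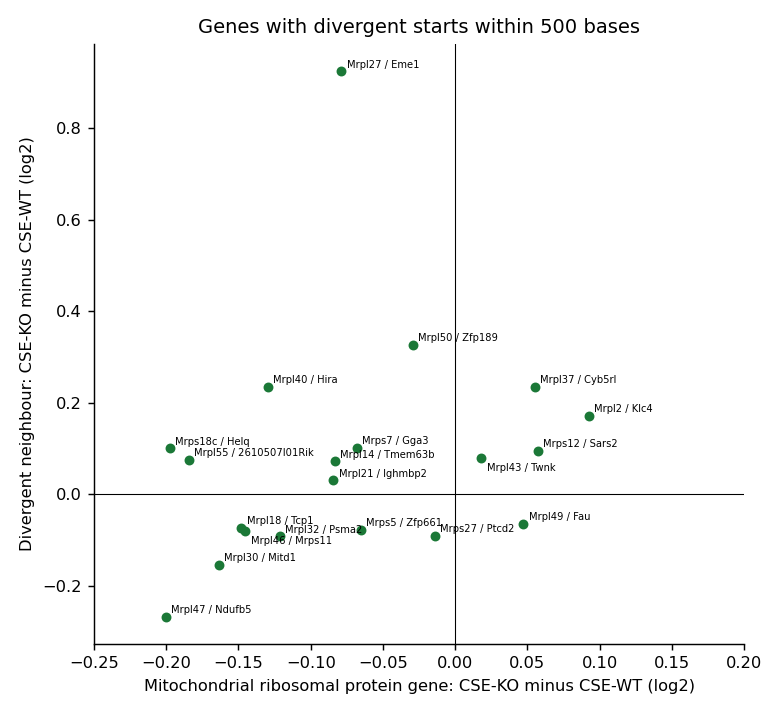
Difference (CSE-KO minus CSE-WT, log2) of each mitochondrial ribosomal protein gene (horizontal axis) and of its divergent neighbour (vertical axis) where starts lie within 500 bases and both genes were measured; 1 point per pair. Mrpl47 and Ndufb5 lie lower left (-0.20 and -0.27), and Mrpl27 and Eme1 at the top (-0.08 and 0.92).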

How the data were processed

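Per the labels' protocols, total RNA was isolated with TRIzol, column-purified, amplified and labelled with Cy3. Per the file headers, the deposited intensity of each spot came from Agilent Feature Extraction 10.7.1.1, while the submitters' processing notes name 9.5.1.1; both arrays lay on 1 slide in 1 scan. The authors also deposited a value table of intensity on a linear scale, used as an alternative.

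Outlier spots (139 and 169 of 59305 gene spots) were left out and spots of a probe averaged as log2 intensity. The 75th percentile over gene probes (519 units on CSE-WT, 540 on CSE-KO) was subtracted. Probes above background on both arrays (30838; 57.0% and 59.6% of probes on each) counted as measured. Each gene was represented by the brightest of its measured probes. Of 399 probes printed 10 times, those measured on both arrays with few outlier spots gave the spot noise, 23 per level bin. Patches were places where gene spots within 30 scanner units differed by a median beyond 0.5. Python 3.11.15, R 4.3.3 and limma 3.58.1 were used. Scaling and difference rules were run on simulated data drawn from the same spot noise, with no array effect, patch or choice of probe. That run checks the arithmetic only and says nothing about variation between arrays. Named were the 12 lowest and 12 highest genes, those with probes at least 0.32 apart, those of known role, all 7 genes with other names and, per pathway list, the 4 largest differences; markers are given by list. Mrps14, Mrps18a, Mrpl34, Mrpl50, Mrps35, Mrpl35, Mrps36, Mrpl36, the genes of the stalk, tunnel exit and central protuberance, promoter pairs, and Yy1, Nrf1 and Gabpa were added after their values were seen. The genes and lists were chosen with earlier results of these data known.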

Additional observations from a re-analysis of the deposited data

How the results depend on the processing

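No paired analysis was possible because each genotype had 1 array. The number of arrays limits the precision, and no result was checked between animals. Over the scalings, background correction, authors' table, dim-probe filter, probe mean, patch removal and level filter, 53 to 64 of the mitochondrial ribosomal protein genes were lower (62 of 74 with the level filter), and their median stayed between -0.08 and -0.04. The median of the set minus that of all genes ran from -0.07 to -0.02, the latter without the filter on dim probes. With normexp background correction 23 genes were higher and 1 (Mrpl3, -0.33) was lower by 0.32 log2 units or more; the cause was not tested. Under 6 scale and background settings 51 genes were lower in each, 12 higher in each and 13 changed sign, so the sign of a difference near 0 is not settled.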
